A study of Danio rerio with 9 samples.

Results

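Solute carriers are membrane proteins that move amino acids, sugars, nucleotides, metals and ions across the plasma membrane and across the membranes of organelles. The zebrafish array carried 1 named probe set or more for 129 genes whose symbols follow the solute carrier pattern, out of 8793 genes with a named probe set. Membership rests on the symbol in the platform annotation, slc followed by a family number and the letter a, with slc2a3a left out. The brightest probe set, by its mean over all arrays, stood for each gene. Among the 129 symbols, 127 belong to carriers from 39 numbered families, with the subunit genes slc3a2a and slc3a2b counted as carriers. The remaining pair is only named after a carrier. slc7a6os lies opposite slc7a6, and slc4a1ap encodes an adaptor protein that binds the product of slc4a1. Carriers whose family subgroup bears another letter do not match the pattern, and for this reason the nucleotide sugar family SLC35 is represented by slc35a4 alone.

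The arrays compare 2 zebrafish leukaemia models, hMYC-ER with 6 arrays and hlk with 3. The labels call both groups GFP-positive T-lymphoblasts, purified by flow sorting from whole bodies of fish whose disease had reached its last stage, but the lineage markers given below go against that name for hMYC-ER. hMYC-ER denotes human MYC joined to part of the oestrogen receptor and hlk is a heritable line. The sources used here give no driving promoter, age or inducing agent, and do not say whether each array stands for a separate fish. The p-values therefore reflect only sample-to-sample spread, possibly technical. No unaffected fish or normal lymphocytes are among the samples, and the differences below are between the models. Arrays keep the numbers of their sample labels, with hMYC-ER first (1 to 6) and hlk after it (7 to 9).

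Families are usually described by cargo. Proteins of the SLC7, SLC38 and SLC43 families move amino acids, those of SLC2 and SLC16 move sugars and monocarboxylates such as lactate, and those of SLC30 and SLC39 move zinc in opposite directions. Most SLC25 proteins sit in the inner mitochondrial membrane, where they exchange citrate, phosphate, nucleotides, folate and amino acids with the cytosol. Members with an slc25 symbol are all counted here as mitochondrial carriers, and family members with other symbols are not. Dividing lymphocytes depend on several of these routes, and MYC is known to activate genes of nutrient uptake in mammalian lymphocytes.

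Values are quantile-normalised log2 signals with a floor of 4.00, equal to a signal of 16, and each difference is hMYC-ER minus hlk on that scale. A difference of 1 is a 2-fold change. Differences of members close to the floor are understated, and the floor also lowers their spread, which enters the test. A gene was called changed at an adjusted p under 0.05 from limma, fitted and adjusted over all 15502 tested probe sets. Array signals show how 1 probe set differs between samples and not which of several genes is more abundant. In bulk samples, fewer cells of a type and less RNA per cell cannot be told apart.

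The arrays had median signals of 88.9 to 110.3. hlk array 7 stood apart, since the control probe sets for the 3' and 5' ends of gapdhs gave a ratio of 50.8 there and of 2.20 to 4.50 elsewhere. Each called carrier and the count of each cargo class with calls are therefore also given without it. Lineage markers differed between the models. All 8 measured B cell markers of 16 listed were higher in hMYC-ER, with an array mean over the list of 11.65 to 12.02 against 6.56 to 6.83 in hlk. For T cell markers, 4 of 16 were measured, and the list mean was 6.25 to 7.50 in hMYC-ER and 8.68 to 11.31 in hlk. That mean includes the recombinase genes rag1 and rag2, which developing B cells also use, so it is not specific to T cells. The 2 called, gata3 (10.20 against 5.51) and trac (11.61 against 7.01), were higher in hlk. Of the others, rag1 leaned towards hlk (-4.11, adjusted p 0.0571, and 0.00159 without array 7). In contrast, rag2 leaned towards hMYC-ER (1.25, adjusted p 0.592). The part of this lineage difference in the results below was not tested. Markers of red cells, liver, muscle, epithelium, kidney tubule, macrophages, thrombocytes and endothelium had 0 called members in limma with all arrays. Without array 7 the globin gene hbaa1 was higher in hMYC-ER (2.33, adjusted p 7.53e-04) and the liver marker fgb in hlk (-1.81, adjusted p 0.00726). Of the markers of pigment cells, neutrophils and neurons, 1 of 5 and 2 of 7 were higher in hMYC-ER and 1 of 8 in hlk. The pigment cell gene was mitfa (11.46 in hMYC-ER against 4.61 in hlk). The neutrophil genes were ncf1 (13.66 against 5.72) and srgn (10.19 against 7.79), and the neuron gene was snap25a (4.04 against 5.42). The other measured genes of these lists were not called.

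Solute carrier genes that passed the test lay almost entirely on the hMYC-ER side. Higher signal in hMYC-ER was called for 20 of the 129 genes (15.5%) and higher signal in hlk for 1 (0.775%), which left 108 uncalled. Over all 8793 genes the shares were 10.1% towards hMYC-ER and 11% towards hlk. Over all 15502 probe sets they were 9.14% and 9.73%. The median difference of the carriers was 0.03, against -0.08 over all genes and -0.04 over all probe sets. An unadjusted p under 0.05 was reached by 24 members towards hMYC-ER and by 14 towards hlk, beside 15.3% and 19.2% of all genes.

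The split between directions moved with the fit. A further 3 members leaning towards hlk, slc7a6os (adjusted p 0.05002), slc12a4 (adjusted p 0.0511) and slc31a1 (adjusted p 0.0524), lay just above the threshold, as did slc25a10b on the other side (adjusted p 0.0505). When array 7 was dropped, calls numbered 14 towards hMYC-ER (10.9%) and 5 towards hlk (3.88%), where 11.1% and 10.2% of all genes, and 9.64% and 9.46% of all probe sets, were called. With each array centred on its median, the split was 15 to 7. That scaling moved the median difference of all probe sets to -0.15. The share of all genes called under it was not taken, so this split cannot be read as a trait of the carriers. The direction of the 20 hMYC-ER calls and of the single hlk call did not turn in any fit.

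Many members gave little signal. On 5 or more of the 9 arrays, 26 of the 129 were at the floor, and 67 were above it on every array. Calls followed signal, with 3 of 62 members called where the mean was below 6, 6 of 30 from 6 to 8, 7 of 23 from 8 to 10 and 5 of 14 at 10 and above. Over all genes the shares called in the same ranges were 6.35%, 27.8%, 29.0% and 30.5%. The 2 models had separate ranges of array values in 24 members (18.6%), beside 23.1% of all genes. Of the 21 called members, 19 were among those 24, and 12 differed at least 2-fold.

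**Figure D1:**
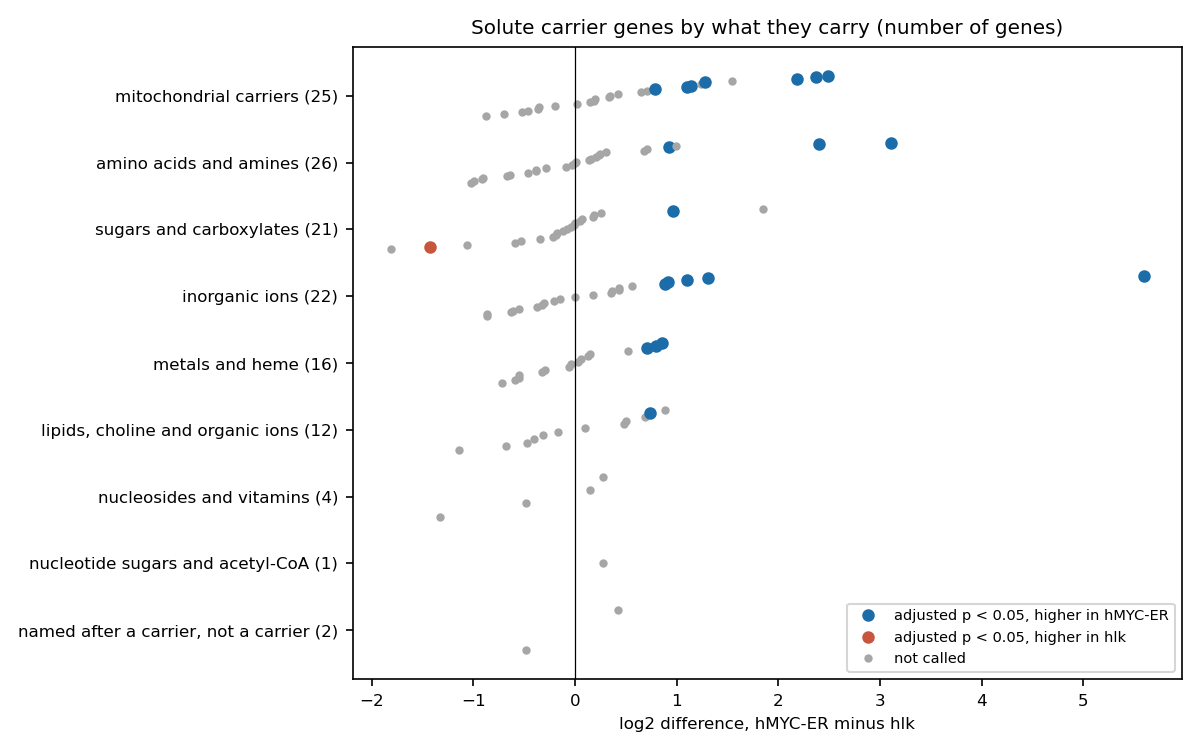
Log2 difference between the models for each of the 129 genes, grouped by cargo, with 1 point per gene and the number of genes in brackets. Called genes are large and coloured, 20 of them to the right of zero and 1, slc37a2, to the left, and slc12a7b lies farthest out at 5.60.

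Mitochondrial carriers held the most calls of any cargo class. Of 25 genes with slc25 symbols, 7 passed towards hMYC-ER. In limma 0 passed towards hlk, where 1 reached an unadjusted p under 0.05, and 18 went uncalled. The class median was 0.34, and 18 of the 25 differences were above zero. Without hlk array 7 the count was 6 and the median 0.54. In that fit slc25a55a and slc25a25a were no longer called, and slc25a16 was added (adjusted p 0.0326). No test was made between cargo classes, which also differed in signal. The median signal of this class was 7.91. It was 8.53 for metal carriers and 4.76 to 5.90 for the sugar, amino acid, lipid and ion classes. Over all genes, 27.8% were called in either direction where the mean was from 6 to 8, and 10.1% towards hMYC-ER at any signal. Shares by direction and signal together were not taken, and many members of the class lay outside that range. The count of calls can therefore not be read as a trait of mitochondrial carriers. The same limit holds for the class counts below.

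slc25a32a, whose human counterpart carries folate and flavin into mitochondria, ran from 6.81 to 7.35 in hMYC-ER with a median of 7.05. The hlk arrays read 4.34, 5.10 and 4.31, close to the floor. All hMYC-ER arrays were above all hlk arrays, with a difference of 2.49 (SE 0.21, adjusted p 1.44e-04), and without array 7 it was 2.37 (adjusted p 7.95e-04).

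slc25a33, the carrier of pyrimidine nucleotides, ran from 11.94 to 13.58 in hMYC-ER around a median of 12.50. It read 10.42, 10.23 and 10.03 in hlk. The hlk arrays lay close together and below every hMYC-ER array, a difference of 2.37 (SE 0.35, adjusted p 0.00247), or 2.46 without array 7 (adjusted p 0.00751).

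slc25a1a, which exports citrate for lipid synthesis, had hMYC-ER values of 7.67 to 8.53 with a median of 7.86. In hlk it stood at 6.12, 5.29 and 5.83. The groups did not overlap, and the difference was 2.18 (SE 0.23, adjusted p 4.96e-04), or 2.37 without array 7 (adjusted p 9.46e-04).

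Smaller differences were found for 4 more genes of this family. slc25a27, related to the uncoupling proteins, measured 7.34 ± 0.26 (SD, n = 6) in hMYC-ER and 5.36, 6.30 and 6.54 in hlk (difference 1.28, adjusted p 0.0134, and 0.92 without array 7, adjusted p 0.0180). The orphan carrier gene slc25a43 stood at 8.98 ± 0.41 (SD, n = 6) and at 7.88, 8.08 and 7.56 (difference 1.14, adjusted p 0.0161, and 1.16 without array 7, adjusted p 0.0405). Its call did not hold without hlk array 9 (adjusted p 0.0617). The gene slc25a55a ran from 12.67 to 13.65 and read 12.21, 12.50 and 12.61 in hlk, which is 0.79 apart (adjusted p 0.0325, and 0.0999 without array 7). Its call was lost in 6 of the 9 fits with 1 array left out. slc25a25a, an ATP-magnesium and phosphate exchanger regulated by calcium, was the 7th call and is named because the class count includes it. Its highest hlk value, 10.26, exceeded its lowest hMYC-ER value, 10.13, and its difference was 1.099 (adjusted p 0.0386, and 0.102 without array 7). The call for slc25a25a was lost in 7 of those 9 fits.

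The measured carriers of phosphate and of ADP and ATP did not pass. slc25a3b, the phosphate carrier, gave 13.25 to 13.995 in hMYC-ER and 14.23, 14.01 and 13.82 in hlk, a difference of -0.52 (95% interval -0.93 to -0.11, adjusted p 0.0804). Its copy slc25a3a differed by -0.88 with hlk values scattered from 4.00 to 6.97 (adjusted p 0.478). The ADP/ATP carrier gene slc25a4 gave low signals, 4.00 to 6.21 in hMYC-ER and 5.83, 4.80 and 5.69 in hlk. Its difference was -0.46 (95% interval -1.61 to 0.68, adjusted p 0.584). The other ADP/ATP carrier genes slc25a5 and slc25a6 are not among the members, so this exchange is judged from slc25a4 alone.

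The measured mitochondrial carriers of iron and of glycine, which serve haem synthesis, also stayed short of the threshold. The mitochondrial iron importer gene slc25a37 differed by 0.65 (95% interval -0.44 to 1.74, adjusted p 0.402), and the glycine carrier gene slc25a38b by -0.36 (95% interval -0.81 to 0.08, adjusted p 0.249). The intervals include changes in either direction. Among the other uncalled members, slc25a44b had the largest difference, 1.55, which rested on array 7 at the floor against 8.21 and 8.06 on hlk arrays 8 and 9, and was 0.17 without that array.

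**Figure D2:**
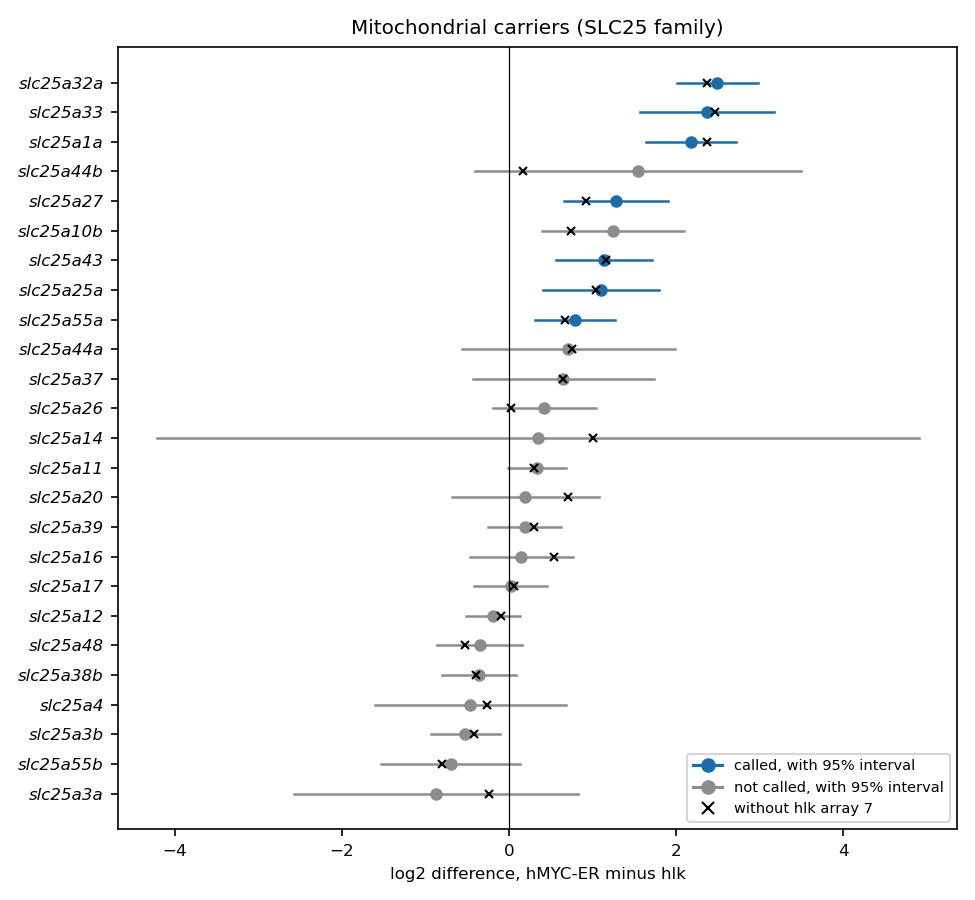
Log2 differences of the 25 genes with slc25 symbols, with 95% intervals from limma, blue where called and grey where not. Crosses give the fit without hlk array 7. The 3 top genes lie between 2.18 and 2.49 with intervals well clear of zero, slc25a44b moves from 1.55 to 0.17 without array 7, and slc25a14 has by far the widest interval.

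slc25a14, a further uncoupling protein relative, split the arrays within both models. It read 10.11, 10.02, 9.94 and 9.58 on hMYC-ER arrays 1 to 4 but 4.00 and 4.50 on arrays 5 and 6. In hlk it read 9.01, 10.03 and 4.00. A further probe set for the same target gave the same split, with 4.00 on arrays 5 and 6 and 4.13 on array 9 against 9.07 to 10.14 elsewhere. The other probe set, at 4.80 to 7.64, did not separate those 3 arrays. The difference between the models was 0.34 (95% interval -4.22 to 4.90), so the models cannot be compared for this gene. It was singled out after its values were seen.

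Amino acid carriers gave 3 calls of 26 genes towards hMYC-ER. In limma 0 passed towards hlk, with 2 at an unadjusted p under 0.05, and the median difference was 0.00. The calls were spread over families, 1 each in SLC43, SLC38 and SLC1. Without hlk array 7, slc43a2a was the single hMYC-ER call left and slc6a19b was called towards hlk. Signals of slc6a19b were near the floor, at 4.00 to 4.38 in hMYC-ER and 4.00, 5.08 and 4.50 in hlk.

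slc43a2a belongs to a family of facilitative transporters for large neutral amino acids. On hMYC-ER arrays it ran from 9.49 to 12.54 with a median of 12.08. The hlk values were 9.30, 8.88 and 7.66. hMYC-ER array 4, the lowest of its group, nearly met hlk array 7, and the difference was 3.11 (SE 0.70, adjusted p 0.0168). It became 3.46 (adjusted p 0.0267) without array 7, while leaving out hlk array 9 gave an adjusted p of 0.0658.

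Its relatives differed less. slc43a2b, near the floor with a mean of 5.08, had a difference of -0.09 (95% interval -1.21 to 1.02). For slc43a1a, which moves the same class of amino acids, it was -0.38 (95% interval -1.11 to 0.34).

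slc38a4, a sodium-coupled transporter of small neutral amino acids, ran from 8.56 to 10.19 in hMYC-ER around a median of 9.76. In hlk it read 5.36 on array 7, 8.24 on array 8 and 8.02 on array 9. All hMYC-ER arrays were higher, and the difference of 2.40 (SE 0.66, adjusted p 0.0373) fell to 1.47 without array 7 (adjusted p 0.0513). The call for slc38a4 was lost in 6 of the 9 fits with 1 array left out. For slc38a2, which transports similar substrates, the groups overlapped and the difference was 0.23 (95% interval -0.79 to 1.26, adjusted p 0.778).

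slc1a3a, a glutamate and aspartate transporter best known from glia, had hMYC-ER values of 6.09 to 7.28. Its hlk values of 5.91, 5.31 and 5.67 were all lower. The difference of 0.93 passed with an adjusted p of 0.0453 and did not pass without array 7 (1.07, adjusted p 0.0543). Its call was lost in 7 of the 9 fits with 1 array left out and held in 3 of 11 other settings.

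The heavy chain CD98 and the cationic amino acid carriers were not called. CD98 is the shared subunit that brings several SLC7 light chains to the cell surface. Its gene slc3a2b ran from 12.25 to 13.26 in hMYC-ER and read 12.47, 11.95 and 11.95 in hlk, a difference of 0.70 (95% interval 0.16 to 1.25, adjusted p 0.0779), whereas slc3a2a differed by 0.30 (adjusted p 0.614). The arginine and lysine carriers slc7a1b (-1.03, adjusted p 0.298) and slc7a3a (-0.99, adjusted p 0.360) leaned the other way with wide intervals, and slc7a7 (-0.28, adjusted p 0.641) was near the floor. No probe set was used here for slc7a5, slc1a5 or slc7a11.

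**Figure D3:**
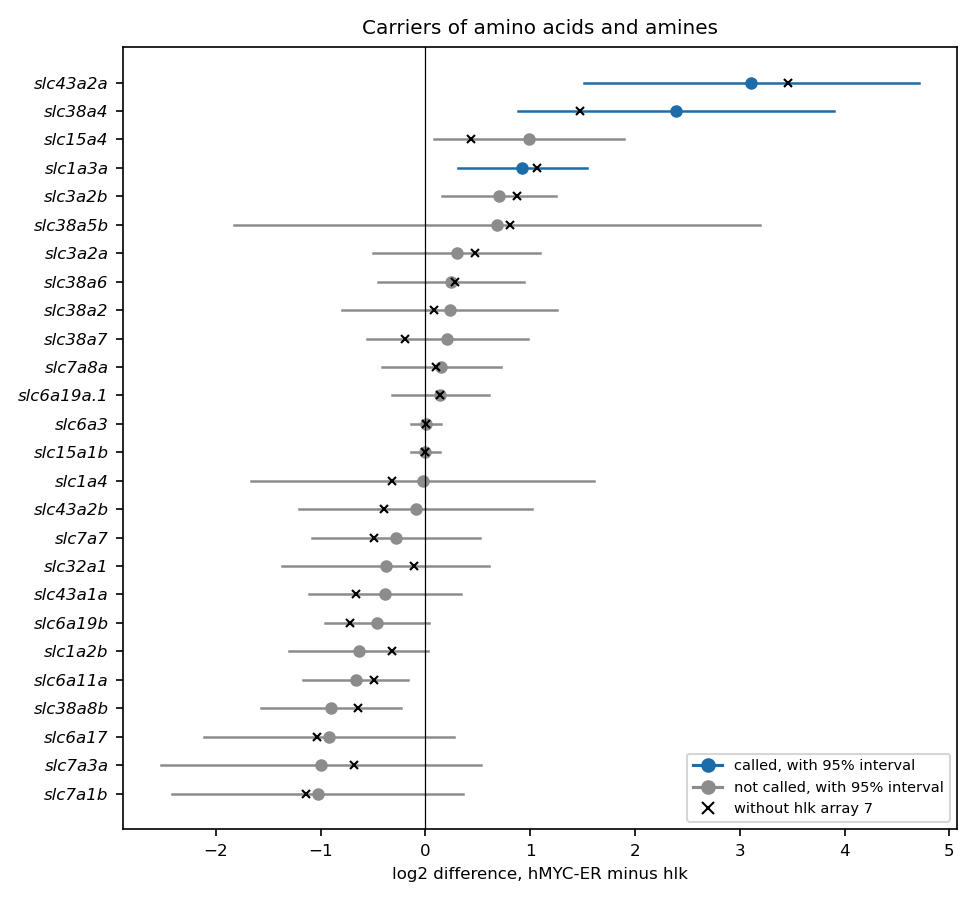
Log2 differences of the 26 genes for carriers of amino acids and amines with 95% intervals from limma, blue where called and grey where not, and crosses for the fit without hlk array 7. The 3 called genes lie at 0.93, 2.40 and 3.11, most intervals span zero, and the cross of slc38a4 sits at 1.47.

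Sugar and carboxylate carriers, with 1 call in each direction among 21 genes, included the single member called towards hlk. Without array 7 the class had 3 calls, all towards hlk. slc37a2, which encodes a sugar phosphate transporter of the endoplasmic reticulum, ran from 6.07 to 7.33 in hMYC-ER with a median of 6.75. It read 8.39, 7.64 and 8.55 in hlk. Every hlk array was higher, with a difference of -1.42 (SE 0.29, adjusted p 0.0117), or -1.32 without array 7 (adjusted p 0.0403).

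slc5a8l, from a family of sodium-coupled transporters, was called higher in hMYC-ER, at 4.45 to 5.59 against 4.00, 4.00 and 4.36 in hlk. The difference of 0.97 (adjusted p 0.0326) lay next to the floor and did not pass without array 7 (adjusted p 0.0900). The call for slc5a8l was lost in 7 of the 9 fits with 1 array left out. With the floor at a signal of 64 its difference was 0. All 7 measured SLC2 sugar transporters, after slc2a3a was left out, were uncalled with all arrays, with differences of -1.06 to 0.26, and slc2a11b was called towards hlk without array 7 (-0.96, adjusted p 0.0436). Signals of slc2a11b were near the floor, at 4.00 to 4.82 in hMYC-ER and 4.00, 5.29 and 5.30 in hlk.

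slc16a3b, related to the mammalian lactate exporter MCT4, did not pass with all arrays in the stated setting. hMYC-ER arrays ran from 4.00 to 5.31. hlk arrays 8 and 9 read 7.31 and 7.45, and array 7 read 4.44, inside the hMYC-ER range. The difference was -1.82 (adjusted p 0.102) with all arrays and -2.79 (adjusted p 0.00287) without array 7. With all arrays it also passed under median centring (-2.03, adjusted p 0.0450) and with array weights (-2.24, adjusted p 0.0376). slc16a1b, of the same family, differed by -0.22 (95% interval -1.78 to 1.34, adjusted p 0.874).

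For slc37a4a, the glucose-6-phosphate transporter of the endoplasmic reticulum, the probe sets gave different answers on the threshold. The brighter one differed by 1.84 (adjusted p 0.0622) with hlk values of 5.64, 7.07 and 4.00. The dimmer one differed by 1.29 (adjusted p 0.00896). slc4a2a, a bicarbonate exchanger gene, had 3 probe sets that differed in direction. The brightest gave -0.15 (adjusted p 0.828) and the others gave 0.62 (adjusted p 0.339) and -1.49 (adjusted p 0.0271, and 0.0742 without array 7). slc37a4a and slc4a2a were the 2 members with an unused probe set called, noticed after their values were seen. The array on which slc37a4a was lowest was hlk array 9 for one probe set and hlk array 8 for the other.

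Ion carriers contained the largest difference among all members. Calls numbered 5 of 22 genes, all towards hMYC-ER. In limma 0 passed towards hlk, with 4 at an unadjusted p under 0.05, and the class median was 0.09. All 22 together gave the same count of 5 without hlk array 7, but not for the same genes. In that fit slc26a11 was no longer called, and slc4a4b was added (adjusted p 0.0153).

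slc12a7b encodes a potassium-chloride cotransporter, a class that lets cells lose salt and water and so lower their volume. Its hMYC-ER values lay between 10.57 and 10.82. In hlk it read 5.86, 4.00 and 5.29. The groups were far apart, with a difference of 5.60 (SE 0.34, adjusted p 2.58e-05). Its size depends on the floor, which hlk array 8 had reached. The difference was 4.65 with the floor at a signal of 64 (adjusted p 1.43e-08) and 6.01 without array 7 (adjusted p 3.29e-05). slc12a4, a second gene for this kind of transporter, had the opposite sign, at 5.96 ± 0.29 (SD, n = 6) against 6.63, 6.79 and 6.35 in hlk, and did not pass (-0.63, adjusted p 0.0511).

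Anion exchangers of the SLC26 family gave 2 calls among 5 genes. slc26a5, known in mammals as the motor protein of outer hair cells, ran from 8.63 to 10.09 in hMYC-ER. Its 3 hlk values, 8.29, 8.19 and 8.17, lay below that range, and the difference was 1.31 (SE 0.30, adjusted p 0.0191), or 1.34 without array 7 (adjusted p 0.0457). The call did not hold without hlk array 8 or without hlk array 9 (adjusted p up to 0.0606). slc26a11, a sulfate transporter, stood at 7.35 ± 0.51 (SD, n = 6) and at 6.33, 5.98 and 6.44, a difference of 1.0998 (adjusted p 0.0380, and 0.0775 without array 7). Its call was lost in 7 of the 9 fits with 1 array left out.

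slc9a7, which exchanges sodium or potassium for protons in the Golgi region, ran from 9.46 to 9.99 in hMYC-ER. It read 8.33, 8.74 and 9.09 in hlk, below all of those, with a difference of 0.92 (SE 0.19, adjusted p 0.0115), or 0.72 without array 7 (adjusted p 0.0285). slc20a2, a phosphate importer, was measured near the floor at 4.65 to 5.21 against 4.00, 4.05 and 4.00. The difference of 0.88 passed (adjusted p 0.00338, and 0.0110 without array 7) and was 0 with the floor raised to a signal of 64.

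Its relatives slc20a1b (0.35, adjusted p 0.324) and slc20a1a, at the floor on all 9 arrays, were not called. slc4a1a, the anion exchanger of red cells, lay at the floor in hlk and at 4.00 to 5.59 in hMYC-ER (adjusted p 0.362). The 11 measured red cell markers had an array mean of 4.66 to 5.36 in hMYC-ER and of 4.57 to 5.37 in hlk.

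Metal carriers gave 3 calls of 16 genes, all higher in hMYC-ER, and a class median of -0.01. In limma 0 were higher in hlk, and 3 were at an unadjusted p under 0.05. Without array 7 there was 1 call in each direction. slc30a7 loads zinc into the Golgi. It ran from 9.55 to 9.87 in hMYC-ER and read 8.89, 8.87 and 8.92 in hlk. Both groups were tight and apart by 0.85 (SE 0.10, adjusted p 6.83e-04), and the value without array 7 was 0.86 (adjusted p 0.00227).

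Iron and further zinc carriers were less clear. slc11a2, the importer of ferrous iron that blood-forming cells need, ran from 9.99 to 10.92 and read 9.31, 9.78 and 9.998 in hlk. These ranges touched, and its difference of 0.80 (adjusted p 0.0445) became 0.61 without array 7 (adjusted p 0.135). The call for slc11a2 was lost in 7 of the 9 fits with 1 array left out. slc39a13, a zinc transporter, was at the floor on all 3 hlk arrays and at least 1.63-fold higher in hMYC-ER (adjusted p 0.0365, and 0.0813 without array 7). Its call was lost in 5 of the 9 fits with 1 array left out and held in 2 of 10 other settings. With the floor at a signal of 64 its difference was 0. The iron exporter gene slc40a1 (0.52, adjusted p 0.583) and the zinc importer gene slc39a6 (0.06, 95% interval -0.28 to 0.39, adjusted p 0.850) did not pass, and the sign of slc39a6 turned under median centring (-0.07).

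On the hlk side of this class, slc31a1, the copper importer, read 9.90, 9.19 and 9.49 in hlk and 8.79 to 9.15 in hMYC-ER. The groups did not overlap, but the difference of -0.55 had an adjusted p of 0.0524. A dimmer probe set for slc31a1 gave 0.53 (adjusted p 0.208), the opposite direction. slc30a5, which moves zinc into the secretory pathway, was called without array 7 (-0.82, adjusted p 0.0229) and not with it (-0.59, adjusted p 0.0866).

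Lipid and organic ion carriers gave 1 call of 12 genes, with or without array 7. slc27a1a, which promotes fatty acid uptake, ran from 8.35 to 9.02 in hMYC-ER and read 8.12, 8.03 and 7.70 in hlk. All hMYC-ER arrays were higher, with a difference of 0.74 (SE 0.17, adjusted p 0.0191), or 0.82 without array 7 (adjusted p 0.0271). The call did not hold without hlk array 9 (adjusted p 0.0683). Uncalled genes of this class, 11 in number, ranged from -1.14 to 0.89.

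None of the 4 nucleoside and vitamin carriers was called, nor was any at an unadjusted p under 0.05 in limma. slc29a2, an equilibrative nucleoside transporter, was widely spread, at 7.00 to 9.54 in hMYC-ER and 9.26, 8.34 and 10.59 in hlk, with a difference of -1.32 (95% interval -2.83 to 0.18, adjusted p 0.213). slc46a1, a proton-coupled folate transporter, differed by 0.28 (adjusted p 0.728). slc35a4, from the nucleotide sugar transporter family, differed by 0.27 (95% interval -0.06 to 0.61, adjusted p 0.241).

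**Figure D4:**
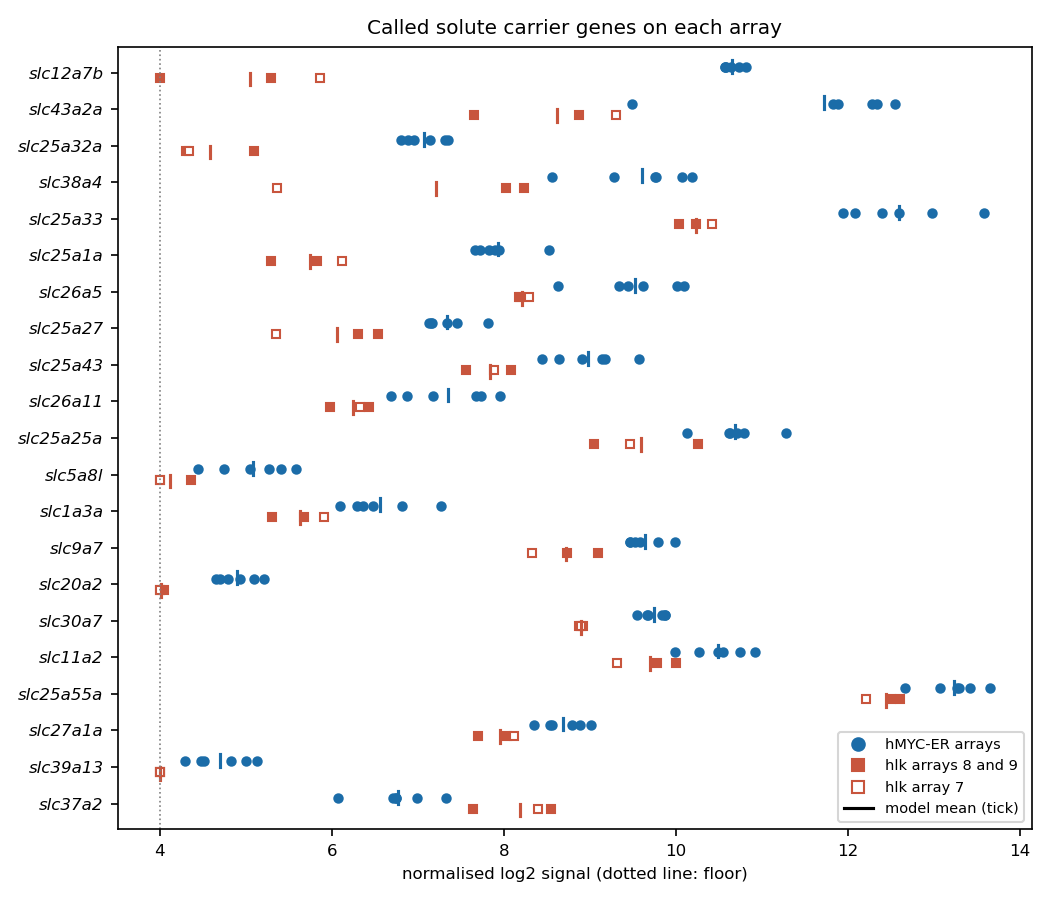
Normalised log2 signal of the 21 called genes on each array, with hMYC-ER as blue circles, hlk arrays 8 and 9 as red squares, hlk array 7 as open squares, and ticks at the model means. The groups are separate for 19 of the 21 genes, and slc11a2 and slc25a25a are the 2 whose ranges touch.

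Teleost fish keep duplicate copies of many genes, and both copies were measured for 9 carriers. In 2 of these pairs 1 copy was called and the other was not, slc43a2a (3.11) against slc43a2b (-0.09) and slc25a55a (0.79) against slc25a55b (-0.70). Both uncalled copies gave signals near the floor, with means over all arrays of 5.08 and 4.79, where few members were called. The called copies had means of 10.69 and 12.97. No pair held calls in opposite directions. Whether the copies of a pair differ in their response was not tested. None of the 21 called members had a second probe set, while 17 of the uncalled members had 1 or more.

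Genes with related roles outside the members moved in both directions. For comparison, 10.1% of all genes were called towards hMYC-ER and 11% towards hlk. In either direction the share was 27.8% to 30.5% in the signal ranges from 6 upward. The list counts given here and in the next paragraphs were not tested against these shares. They can therefore not be read as traits of the lists. Sodium-coupled carriers use the gradient made by the sodium pump, and of 14 measured pump subunits and carrier partners, 2 passed towards hMYC-ER and 3 towards hlk around a median of -0.30. The pump subunit gene atp1b2a averaged 5.17 ± 0.69 (SD, n = 6) against 9.10 ± 0.78 (SD, n = 3) (-3.93, adjusted p 8.94e-04), and the pump regulator gene fxyd6l differed by -3.90 (adjusted p 0.00284). atp1b3a (1.19, adjusted p 0.0185) and atp1b3b (1.16, adjusted p 0.0279), which encode other beta subunits, were higher in hMYC-ER, the latter not without array 7 (adjusted p 0.0877). Of the partners that bring lactate carriers to the membrane, emb was higher in hlk (-1.82, adjusted p 0.0335, and 0.0855 without array 7), and bsg did not pass (-0.19, adjusted p 0.511).

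In iron and haem handling, 4 of 11 measured genes passed towards hlk and 0 towards hMYC-ER. They included the ferritin receptor gene ncoa4 (-0.88, adjusted p 0.00418), the iron-sensing ligase gene fbxl5 (-1.01, adjusted p 0.00726) and the haem synthesis gene cpox (-0.81, adjusted p 0.0262). Without array 7 cpox did not pass (adjusted p 0.0633). At an unadjusted p under 0.05 in limma, fech, the enzyme gene that inserts iron into haem, was the single gene higher in hMYC-ER (1.05, adjusted p 0.135). The iron importer gene slc11a2 was called in the opposite direction.

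The mitochondrial transport genes whose symbols do not match the slc pattern included ucp1, ucp2 and ucp3 of the SLC25 family. Of the 13 such genes measured, 2 were higher in hMYC-ER. They were tspo (1.36, adjusted p 0.00989) and the channel gene vdac3 (1.76, adjusted p 0.0228). In limma 0 of these genes were higher in hlk, where 1, ucp1, reached an unadjusted p under 0.05. Without array 7 vdac3 did not pass (adjusted p 0.0727). Amino acid sensing and the ATF4 stress response gave 1 call of 14 genes towards hMYC-ER and 2 towards hlk. The glutathione-degrading enzyme gene chac1, an ATF4 target, was higher in hMYC-ER (1.59, adjusted p 0.00185), and lamtor4 (-0.85, adjusted p 0.0298) and sesn3 (-1.01, adjusted p 0.0344), which act in amino acid sensing by TOR, were higher in hlk. Without array 7 neither of those hlk calls passed, and asns, the asparagine synthetase gene, was called towards hMYC-ER (0.58, adjusted p 0.0239, against 0.34 and 0.273 with all arrays).

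**Figure D5:**
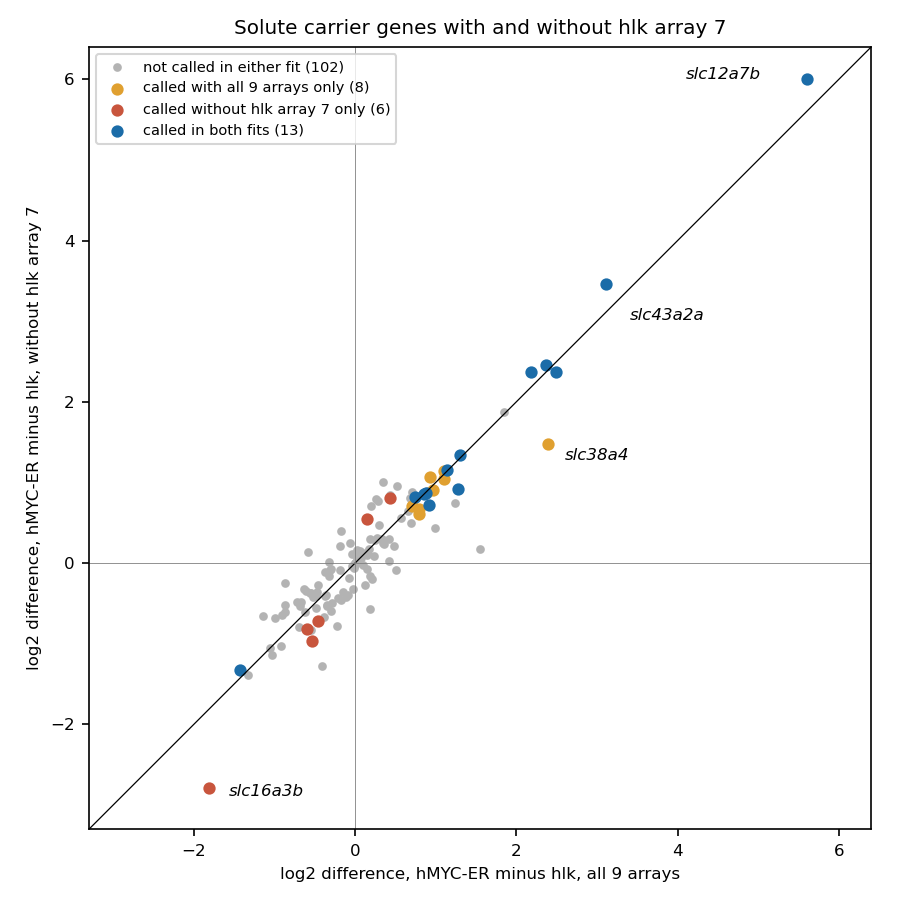
Log2 difference of each of the 129 genes with all 9 arrays, on the horizontal axis, and without hlk array 7, on the vertical axis, with a line of equality. The plot shows 13 genes called in both fits, 8 only with all arrays and 6 only without array 7, and slc16a3b and slc38a4 lie farthest from the line among the called genes.

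Spread between hlk replicates was taken with and without array 7. The median SD of the members was 0.37 over the 6 hMYC-ER arrays and 0.52 over the 3 hlk arrays, beside 0.33 and 0.43 over all genes, and 0.32 over hlk arrays 8 and 9. A median SD depends on the number of arrays, so these values cannot be compared between sets of different size. For hlk arrays 8 and 9 no value over all genes was taken. On array 7, 32 of the 129 members were the lowest of the 3 hlk arrays and 44 the highest. Of the 21 calls, 13 were made again in the same direction without array 7 and 0 in the opposite direction, and 6 members were called only without it. These 6, all but slc16a3b named after their values were seen, were slc4a4b and slc25a16, higher in hMYC-ER, and slc16a3b, slc30a5, slc6a19b and slc2a11b, higher in hlk. In 9 genes the call held whichever single array was left out, namely slc12a7b, slc25a1a, slc25a32a, slc25a33, slc25a27, slc30a7, slc37a2, slc9a7 and slc20a2.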

How the data were processed

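Expression was measured on 1-colour Affymetrix arrays, 1 per sample, from cRNA labelled with biotin, per the labels' protocols. The deposited intensities are linear, 1 per probe set, and the authors had scaled them, since the mean after trimming 2% at each end is 500.1 or 500.2 on all 9 arrays. The sources used here name no signal algorithm. Of 15617 probe sets, 115 controls were left out. Names come from the platform annotation, 10795 probe sets having 1 symbol, 135 several and 4572 none. All 129 members matched an Entrez identifier in a GRCz12tu gene table and none changed name.

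Array medians of log2 signal differed by 0.302, above the limit of 0.1, so log2 intensities were quantile normalised and then floored. limma 3.58.1 in R 4.3.3 gave every adjusted p (two-sided, Benjamini-Hochberg over all probe sets), with no covariate, since labels give no batch. Between models, batch cannot be told apart from model. Figures used Python 3.11.15 and matplotlib 3.10.9. Simulated data for this comparison had 15502 probe sets, with 50 changed at each size, all picked from those with a mean above 6. Of log2 changes of 1, 34% were recovered, and 74% of 2, 92% of 3 and 98% of 4. On the real arrays 18.9% of probe sets were called. Recovery was not split by signal above 6 and was not measured below it. A mean below 6 was found for 62 members, of which 3 were called. The recovered shares therefore do not give the power for the members. The number of arrays limits the precision.

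Members, cargo classes and lists were chosen with earlier results of these data known. Named genes were up to 6 calls per class and direction by p, the smallest p in a class without calls, a list of known carriers and up to 3 calls per direction in each other list. Alternatives changed the scaling, floor, filter, prior, weights, adjustment, probe set rule and call rule, or left out each array.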

Additional observations from a re-analysis of the deposited data

Results flagged for a closer look

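Among 43 named carrier genes with any spread in hMYC-ER, 2 had 1 array far from the other 5, where chance alone flags about 1 in 20. slc43a2a read 9.49 on hMYC-ER array 4, and the nearest other array read 11.82. slc25a1a read 8.53 on hMYC-ER array 1, and the nearest other array read 7.94. Both genes were higher in hMYC-ER with the outlying array left out (adjusted p 0.00118 and 5.32e-04).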

How the results depend on the processing

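The stated setting called 20 members towards hMYC-ER and 1 towards hlk. Leaving out 1 array at a time gave 13 to 18 and 1 to 7, with 13 and 7 without hlk array 9, 13 and 5 without hlk array 8, 14 and 5 without hlk array 7, and 13 and 2 without hMYC-ER array 1. The hlk count was 7 with arrays centred on their medians, 3 after the dimmest probe sets were left out, 2 with the floor at 64, 2 with a trended and robust prior, 4 with p-values adjusted over genes and 4 with probe sets averaged. Array weights gave 10 and 3. Requiring a 2-fold difference left 11 towards hMYC-ER, and 12 in either direction beside 12.7% of all genes. An unadjusted p under 0.001 left 6 and 0. Shares of all genes were taken only in the stated setting, without hlk array 7 and under the 2-fold rule. The other counts can therefore not be read as traits of the carriers. The median difference of the members stayed between -0.0042 and 0.18. Of the 21 calls, 8 held in every refit at the same threshold and none changed direction.

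Sign changes occurred among 9 named genes that were not called. slc39a6 was -0.0679 with median centring. With the floor at 64, slc25a4 was 0.0357 and slc46a1 was -0.0471. With 1 array left out, slc16a1b ranged from -0.78 to 0.16, slc43a2b from -0.39 to 0.37, slc38a2 from -0.0117 to 0.62, slc40a1 from -0.16 to 0.96, slc46a1 from -0.29 to 0.77, slc7a7 from -0.49 to 0.0139, slc39a6 from -0.0684 to 0.15 and slc3a2a from -0.14 to 0.57. The cause was not tested. No paired analysis was possible because the groups share no replicate numbers.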

Other observations

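slc38a5b, a further sodium-coupled amino acid transporter gene that did not pass the test, read 9.22 on hMYC-ER array 4 and 4.00 to 5.55 on the other 5 hMYC-ER arrays. Its hlk values were 5.00, 5.25 and 4.00. The same array gave the lowest hMYC-ER value of slc43a2a. slc1a4, a neutral amino acid transporter gene, read 8.00, 7.12 and 10.63 in hlk and 8.00 to 9.42 in hMYC-ER. These genes were noticed after their values were seen.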
